A study of Mus musculus with 6 samples.

Results

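A set of 10 genes of retinoic acid synthesis and response were followed through the oocyte transcriptomes of Khdc3-null and wild-type mice. They are the 10 of 53656 gene symbols in the deposited table whose names equal Aldh1a1, Aldh1a2, Aldh1a7, Rdh10, Rdh11, Crabp1, Rara, Rarg, Cyp26b1 and Stra8. The set was drawn up by function, with earlier results of these data known. The study compared RNA of oocytes lacking Khdc3 (KO, 3 libraries) with that of wild-type oocytes (WT, 3 libraries). Khdc3 codes for one component of the subcortical maternal complex, which the egg stores for the early embryo. The oocytes of both groups were taken from ovaries by manual dissection. The age and strain of the mice, the Khdc3 allele, the stage of the oocytes and the number of oocytes and animals behind a library are not given in the sources at hand. Since nothing says that the libraries came from separate animals, p-values here speak only of the spread among these libraries, which may be technical.

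Retinoic acid is made from vitamin A (retinol) in consecutive oxidations. Retinol dehydrogenases and alcohol dehydrogenases give retinal, some related enzymes run this step backwards, and aldehyde dehydrogenases of the ALDH1A family turn retinal into retinoic acid. The acid binds nuclear receptors (RAR, paired with RXR) that act on target genes, and CYP26 enzymes destroy it. In the fetal ovary this signal is best known for switching on Stra8 as germ cells enter meiosis, a step that oocytes of a born female have already passed.

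Values are RPKM, reads scaled to gene length and to the depth of the library. Read totals recovered from the table were 34640170 to 43343444 a library. Khdc3 itself had 0.224, 0.217 and 0.113 RPKM in KO 1, 2 and 3, against 423, 425 and 502 RPKM in WT 1, 2 and 3, so every library matched its label at this gene. In a principal component analysis of the tested genes the first component (49.5% of the variance) separated KO from WT. On the second (18.1%) KO 1 stood apart, with a loading of 0.75 against -0.42 to 0.28 in the other 5 libraries. The oocyte marker Gdf9, which encodes a growth factor secreted by the oocyte, averaged 3289 ± 209 RPKM in KO and 3343 ± 106 RPKM in WT (SD, n = 3 each).

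Aldh1a1, a retinal-oxidising enzyme, was the one gene of the 10 that passed the test, at 4.53 ± 2.03 RPKM in KO and 0.674 ± 0.230 RPKM in WT (SD, n = 3 each). Aldh1a2, the abundant enzyme of the same step in these oocytes, averaged 32.2 ± 4.71 RPKM in KO and 41.1 ± 2.05 RPKM in WT without passing it. The retinol and retinal enzymes Rdh10 and Rdh11 and the receptor Rara did not pass it, with KO means 1.00, 0.995 and 0.904 times the WT means. The other 5 genes were at or below 0.570 RPKM in every library, and Crabp1, Cyp26b1 and Stra8 had 0 to 6 reads in any library. A gene entered the test if at least 3 of the 6 libraries reached 1 RPKM. It was tested on log2(RPKM + 1) with limma, and called at an adjusted p (Benjamini-Hochberg over all 12272 tested genes) under 0.05. Of the 10 genes 5 were tested and 1 was called, where 2.74% of all tested genes were called (336 genes, with 1.60% called higher and 1.14% called lower in KO). KO and WT did not overlap for 2 of the 5, Aldh1a1 and Aldh1a2, and for 25.8% of all tested genes. For Aldh1a1 this was fixed by the filter, which it passed through the KO libraries alone. Of the tested genes with 1 RPKM or more in one group alone, 43.9% were called. The median log2 change of the 5 was -0.01, beside 0.01 over all tested genes.

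**Figure D1:**
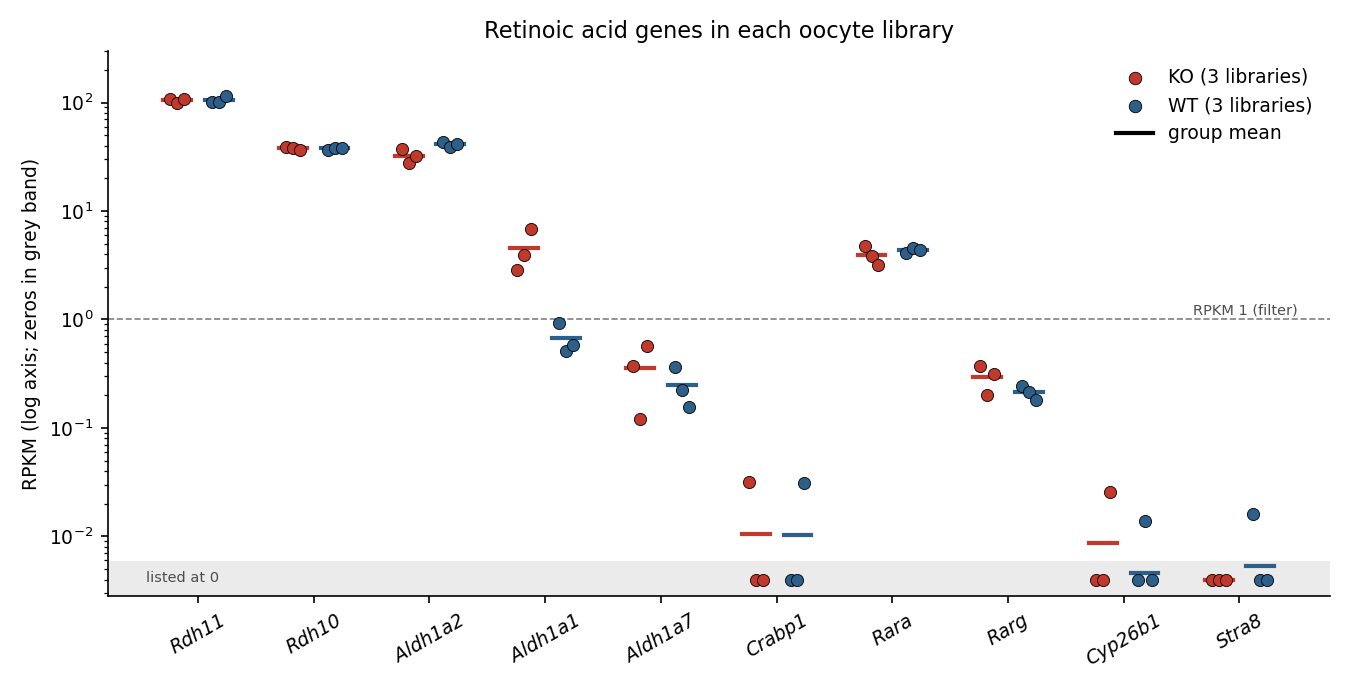
RPKM (log axis) of the 10 genes in the 3 KO libraries (red, left) and the 3 WT libraries (blue, right), with group means as bars and values of 0 in the grey band. Aldh1a1 lies at 2.85 to 6.79 RPKM in KO and at 0.509 to 0.936 RPKM in WT, while Crabp1, Cyp26b1 and Stra8 lie at or next to 0 in both.

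The enzymes that exchange retinol and retinal came first in level. Rdh11, a membrane-bound enzyme of the endoplasmic reticulum that reduces retinal, lies on chromosome 12 (GRCm38, 79174337 to 79192293, minus strand). It had 108, 99.998 and 108 RPKM in KO 1, 2 and 3, against 101, 101 and 115 RPKM in WT 1, 2 and 3. It was the most abundant of the 10 in both groups, and the groups overlapped. Its log2 change was -0.01 ± 0.07 (SE, 95% interval -0.18 to 0.16, limma adjusted p = 0.977). Rdh10, the retinol dehydrogenase that supplies retinal in the mouse embryo, lies on chromosome 1 (16105774 to 16133734, plus strand). It had 38.9, 37.8 and 36.8 RPKM in KO 1, 2 and 3, against 36.4, 38.4 and 38.4 RPKM in WT 1, 2 and 3. The groups overlapped within a narrow band. Its log2 change was 0.004 ± 0.06 (SE, 95% interval -0.14 to 0.15, limma adjusted p = 0.982). Both intervals end far below the change of Aldh1a1 given next, and the sign of both changes turned under other scalings or without single libraries.

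Aldh1a1 lies on chromosome 19 (20492715 to 20643465, plus strand) and had 2.85, 3.95 and 6.79 RPKM in KO 1, 2 and 3, against 0.936, 0.509 and 0.577 RPKM in WT 1, 2 and 3. These values stood for 552, 788 and 1453 reads in KO and 160, 102 and 115 reads in WT. Every KO library was above every WT library, and KO 3 was the highest. The ratio of the group means was 6.73. On the scale of log2(RPKM + 1), where changes of low genes come out too small, Aldh1a1 rose by 1.67 ± 0.24 (SE, 95% interval 1.11 to 2.23, limma adjusted p = 0.0132). An exact two-sided permutation test of the same values gave p = 0.10, the smallest that 3 against 3 libraries allow. Aldh1a1 reached 1 RPKM in 3 of 3 KO libraries and 0 of 3 WT libraries, so it entered the test only through the group in which it was high. Such genes had to differ: of the 155 tested genes with 1 RPKM or more in one group alone, 68 were called (43.9%). With no filter on low values the adjusted p of Aldh1a1 was 0.087, and without WT 3 it was 0.0533. Without KO 1, the library that stood apart, its log2 change was 1.90 (limma adjusted p = 0.00866).

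Aldh1a2 lies on chromosome 9 (71215789 to 71296243, plus strand) and is the main retinoic acid-making enzyme of the early mouse embryo. It had 37.0, 27.6 and 32.1 RPKM in KO 1, 2 and 3, against 43.0, 38.9 and 41.3 RPKM in WT 1, 2 and 3. Every KO library was below every WT library, and the KO libraries were spread more widely. Its log2 change was -0.35 ± 0.11 (SE, 95% interval -0.59 to -0.11, limma adjusted p = 0.134). Without KO 1 it passed, at -0.45 and an adjusted p of 0.0467 in limma, in a fit that called 2.35% of the tested genes. It also passed when limma weighted libraries by their quality, at -0.42 and an adjusted p of 0.039, in a fit that called 5.39%. Over 17 alternatives its adjusted p ran from 0.039 to 0.307.

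Aldh1a7, a close copy of Aldh1a1 found in rodents, lies next to it on chromosome 19 (20692953 to 20727562, minus strand), 49488 bases away. It had 0.370, 0.120 and 0.570 RPKM in KO 1, 2 and 3, against 0.363, 0.226 and 0.156 RPKM in WT 1, 2 and 3. The highest and the lowest value were both KO libraries, and the groups overlapped. It had 30, 10 and 51 reads in KO and 26, 19 and 13 reads in WT, was too low to be tested, and gave p = 0.60 in the exact two-sided permutation test. Aldh1a1 had 7.70, 33.0 and 11.9 times the RPKM of Aldh1a7 in KO 1, 2 and 3, and 2.58, 2.25 and 3.70 times in WT 1, 2 and 3. The length behind the RPKM of Aldh1a1 was 4934 bases, which takes in alternative exons, where its transcript Aldh1a1-201 has 2053. Which transcripts the oocytes used was not measured, so the level of Aldh1a1 beside that of other genes depends on this length.

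The start regions of the Aldh1a genes are shown because one window of Aldh1a1 and that of Aldh1a7 are alike near the start, while their values differed as above. Which start of Aldh1a1 the oocytes used was not measured. The windows are from RefSeq on GRCm38.p6, from 250 bases before to 50 bases after the start, written 5′ to 3′ on the strand of the gene. Capitals mark the octamer ATGCAAAT, the textbook motif of POU factors such as Pou5f1, which was picked after the sequences had been seen. The Aldh1a1 window is the second of its 2 RefSeq windows, at chr19:20601718-20602017 on the plus strand. The Aldh1a7 window is at chr19:20727507-20727806 on the minus strand, and the Aldh1a2 window at chr9:71215539-71215838 on the plus strand.
Aldh1a1: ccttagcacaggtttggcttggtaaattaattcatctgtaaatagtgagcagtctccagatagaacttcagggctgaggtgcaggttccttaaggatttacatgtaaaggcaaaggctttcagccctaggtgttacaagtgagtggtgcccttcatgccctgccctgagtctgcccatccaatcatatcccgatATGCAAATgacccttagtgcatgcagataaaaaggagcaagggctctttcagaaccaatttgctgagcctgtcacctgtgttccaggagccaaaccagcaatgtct
Aldh1a7: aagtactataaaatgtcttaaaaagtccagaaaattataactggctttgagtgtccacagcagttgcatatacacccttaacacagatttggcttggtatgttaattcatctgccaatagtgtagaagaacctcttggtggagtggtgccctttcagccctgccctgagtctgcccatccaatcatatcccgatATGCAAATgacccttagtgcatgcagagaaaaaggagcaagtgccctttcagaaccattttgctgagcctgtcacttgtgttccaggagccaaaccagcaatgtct
Aldh1a2: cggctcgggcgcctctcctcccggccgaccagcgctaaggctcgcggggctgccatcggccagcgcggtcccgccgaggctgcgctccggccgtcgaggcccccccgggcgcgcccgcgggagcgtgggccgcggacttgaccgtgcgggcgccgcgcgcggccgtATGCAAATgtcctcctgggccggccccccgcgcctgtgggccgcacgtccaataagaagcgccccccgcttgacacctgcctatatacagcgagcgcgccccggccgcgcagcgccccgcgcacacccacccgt

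The last 150 bases of the Aldh1a1 and Aldh1a7 windows were identical at 95.4% of 151 aligned columns. Over the whole windows of 300 bases the best local alignment covered only 161 columns. Both hold the same run of 65 bases, which begins 94 bases before the start and contains the octamer 56 bases before it. The Aldh1a2 window, of another sequence, has the octamer 84 bases before its start. The octamer, searched on both strands, occurs in 3 of the 15 windows of the 9 genes that have one in the table and in 1.74% of all 32851 windows. The other Aldh1a1 window, at chr19:20492333-20492632, holds no match. These matches are letters in a window and were not tied to binding.

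Reads of near-identical copies can be split by counting, so the likeness of the transcripts bears on the values of Aldh1a1 and Aldh1a7. Aldh1a1-201 and Aldh1a7-201 were identical at 89% of 2073 aligned columns, and Aldh1a1-201 and Aldh1a2-201 at 70.7% of 1545. Of the 75-base stretches of the annotated Aldh1a1 transcripts 1.01% also occur in Aldh1a7, and 0% in Aldh1a2. Of the Aldh1a7 stretches 2.51% occur in Aldh1a1. The sources used here do not give the read length.

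Summed over Aldh1a1, Aldh1a2, Aldh1a3 and Aldh1a7, the level of the family was 40.4, 31.9 and 39.5 RPKM in KO 1, 2 and 3, against 44.5, 39.8 and 42.1 RPKM in WT 1, 2 and 3. The groups overlapped in this sum. Aldh1a1 made up 7.05%, 12.4% and 17.2% of it in KO 1, 2 and 3, against 2.10%, 1.28% and 1.37% in WT 1, 2 and 3. Aldh1a2 made up 81.2% to 91.5% of it in KO and 96.7% to 98.0% in WT. Aldh1a3, the third retinal-oxidising enzyme of the family, stayed between 0.0800 and 0.257 RPKM in KO and between 0.0906 and 0.163 RPKM in WT.

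**Figure D2:**
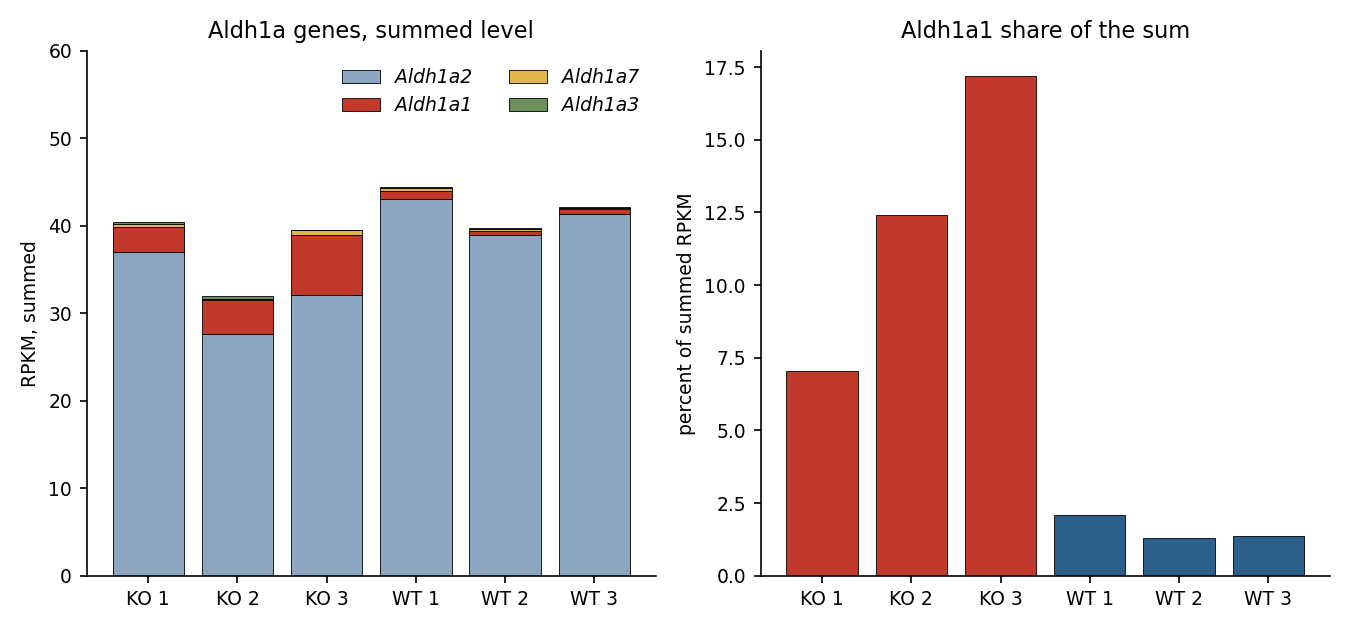
Left, RPKM of the 4 Aldh1a genes stacked for each library; right, the percent of that sum made up by Aldh1a1, with KO in red and WT in blue. Aldh1a2 makes up most of every bar, and the Aldh1a1 share is 7.05% to 17.2% in KO and 1.28% to 2.10% in WT.

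Retinoic acid is carried in the cell by small binding proteins. Crabp1 (chromosome 9, 54764748 to 54773110, plus strand) had 1 read in KO 1 and 1 in WT 3, and 0 in the other 4 libraries. Such counts lie under the 3 reads that a count of 0 allows, which is 0.0863 to 0.108 RPKM for this gene (counting error only). Its relative Crabp2, which passes the acid to the receptors, was abundant instead, at 53.4, 46.1 and 45.4 RPKM in KO 1, 2 and 3, against 40.6, 44.9 and 40.7 RPKM in WT 1, 2 and 3. The Crabp2 groups did not overlap, but its log2 change of 0.19 did not pass the test (limma adjusted p = 0.259). Fabp5, a fatty acid carrier that also binds retinoic acid, had 21.4, 18.7 and 19.7 RPKM in KO and 16.0, 14.8 and 17.0 RPKM in WT. All KO libraries were above all WT libraries, with a log2 change of 0.31 that did not pass (limma adjusted p = 0.0999).

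Rara, the retinoic acid receptor alpha gene on chromosome 11 (98927818 to 98974942, plus strand), had 4.74, 3.84 and 3.18 RPKM in KO 1, 2 and 3, against 4.09, 4.52 and 4.40 RPKM in WT 1, 2 and 3. The highest and the lowest value were both KO libraries. Its log2 change was -0.13 ± 0.13 (SE, 95% interval -0.42 to 0.16, limma adjusted p = 0.618). Rarg, the receptor gamma gene on chromosome 15 (102234938 to 102257517, minus strand), had 0.371, 0.203 and 0.314 RPKM in KO 1, 2 and 3, against 0.244, 0.214 and 0.180 RPKM in WT 1, 2 and 3. The groups overlapped (exact two-sided permutation test, p = 0.30), and it was too low to be tested across genes. Rara had 10.1 to 18.9 times the RPKM of Rarg in KO and 16.8 to 24.5 times in WT. Rxra, a partner receptor, averaged 1.86 ± 0.257 RPKM in KO and 2.81 ± 0.185 RPKM in WT (SD, n = 3 each), with no overlap and a log2 change of -0.42 that did not pass (limma adjusted p = 0.0846). The partner receptor Rxrb had 1.86 to 2.08 RPKM in KO and 1.83 to 2.32 RPKM in WT.

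Cyp26b1, an enzyme that degrades retinoic acid (chromosome 6, 84571414 to 84593908, minus strand), had 6 reads in KO 3 and 3 reads in WT 2 and 0 in the other 4 libraries. A count of 0 allows up to 0.0129 to 0.0162 RPKM for it. Its relatives Cyp26a1 and Cyp26c1 stayed at or below 0.101 RPKM in KO and 0.169 RPKM in WT, so none of the 3 degrading enzymes was tested. Stra8, the retinoic acid target that marks entry into meiosis (chromosome 6, 34920163 to 34939344, plus strand), had 0 reads in all 3 KO libraries and 1 read, in WT 1, among the WT libraries. A count of 0 allows up to 0.0384 to 0.0480 RPKM for it. No difference in Cyp26b1 or Stra8 was detectable at this depth. The Stra8 window of RefSeq holds AGGTCA, the half-site of many nuclear receptors, 194 and 38 bases before the start. At least 1 AGGTCA, on either strand, occurs in 4 of the 15 windows of the 9 genes and in 16.3% of all windows.

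In KO the order of mean RPKM was Rdh11, Rdh10, Aldh1a2, Aldh1a1, Rara, Aldh1a7 and Rarg, followed by Crabp1, Cyp26b1 and Stra8 at the floor. In WT it was Rdh11, Aldh1a2, Rdh10, Rara, Aldh1a1, Aldh1a7 and Rarg, followed by the same genes at the floor. In KO the ranges of Rdh10 and Aldh1a2, of Aldh1a1 and Rara, and of Aldh1a7 and Rarg overlapped. In WT only Aldh1a7 and Rarg overlapped among the 7 higher genes. Aldh1a2 had 0.730 to 0.950 times the RPKM of Rdh10 in KO and 1.01 to 1.18 times in WT.

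**Figure D3:**
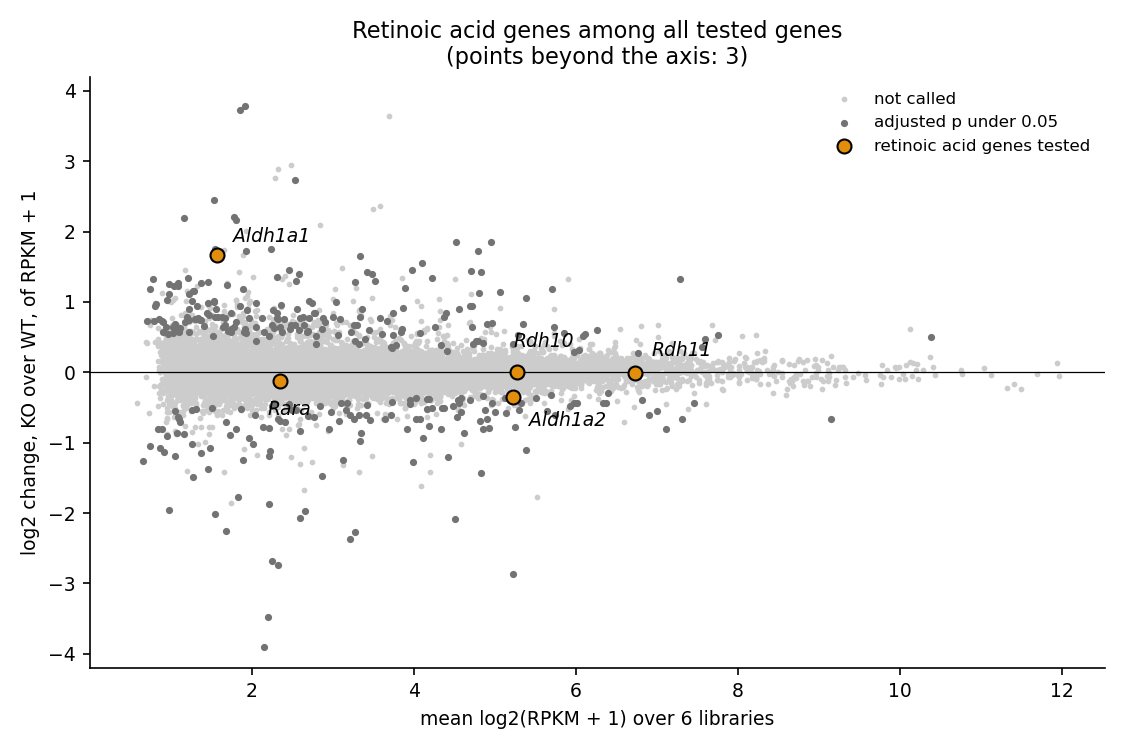
Mean log2(RPKM + 1) over the 6 libraries against the log2 change of KO over WT for all 12272 tested genes, with called genes in dark grey and the 5 tested retinoic acid genes in orange. Aldh1a1 lies at a change of 1.67 among genes of low level, Aldh1a2 at -0.35, and Rdh10, Rdh11 and Rara next to 0.

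A wider list of 73 retinoid genes, the 10 included, was read for the rest of the pathway. Of these, 72 were in the table and 30 were tested. Aldh1a1 and Adh1 were called, both higher in KO, and 0 were lower, where 2.74% of all tested genes were called. Both reached 1 RPKM in the KO libraries alone, and of tested genes that did so in one group alone 43.9% were called. The median log2 change of the 30 was 0.02, beside 0.01 over all tested genes, with 18 positive and 12 negative. Among genes of retinol and retinal exchange 1 of 9 tested was called, and among genes of retinoic acid synthesis 1 of 2. None of the 2 tested genes of retinol uptake and storage, the 2 of binding, the 3 receptors, the 10 co-regulators or the 4 target genes was called by limma. Of these groups, binding had 2 genes and the receptors 1 gene at an unadjusted p under 0.05. With no filter on low values limma called 0 of the list, where 7 of its 30 filtered genes had an unadjusted p under 0.05, as had 2329 of all 12272 tested genes.

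Adh1, a cytosolic alcohol dehydrogenase that oxidises ethanol and retinol, had 1.39, 1.61 and 2.34 RPKM in KO 1, 2 and 3, against 0.155, 0.628 and 0.310 RPKM in WT 1, 2 and 3. Every KO library was above every WT library and KO 3 was the highest, as it was for Aldh1a1. Adh1 rose by 1.03 ± 0.17 (SE, limma adjusted p = 0.0233). Like Aldh1a1 it reached 1 RPKM in the KO libraries alone, so the filter fixed the separation of its groups. Without the filter its adjusted p in limma was 0.124. It lost its call without KO 2 (adjusted p 0.0659 in limma), KO 3 (0.0742), WT 1 (0.0591) or WT 3 (0.0839). Apart from Rdh10 and Rdh11, the most abundant genes of its step, Adh5 and the aldo-keto reductase Akr1b3, had log2 changes of 0.03 and 0.0019.

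In the other groups of the list the most abundant genes outside the 10 did not pass the test. Dgat1, which makes triglycerides and retinyl esters, had 3.90 to 5.22 RPKM in KO and 4.21 to 6.27 RPKM in WT. Lipe, a lipase that frees stored fat and retinol, had 1.24 to 1.35 RPKM in KO and 1.03 to 1.27 RPKM in WT. The receptor co-regulators Ncoa3 and Med1 had log2 changes of 0.03 and 0.10. The target genes Bhlhe40, a transcription factor, and Dhrs3, which turns retinal back into retinol, had log2 changes of -0.02 and 0.44, and Dhrs3 did not pass (limma adjusted p = 0.386).

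**Figure D4:**
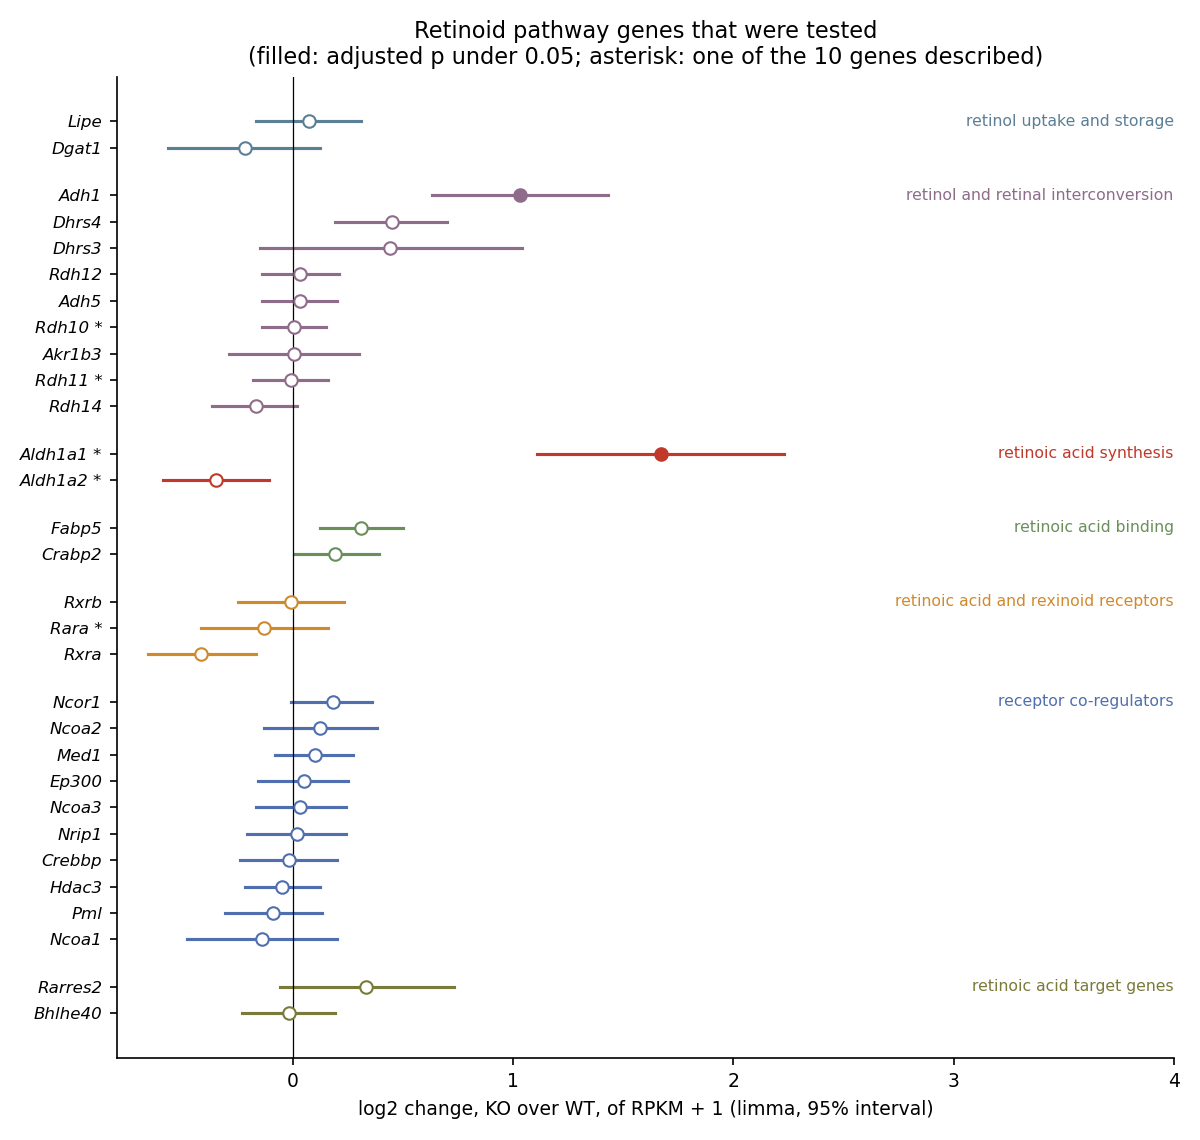
Log2 change of KO over WT with its 95% interval (limma) for the 30 tested retinoid genes, ordered by role, where filled points are called. The 2 filled points are Aldh1a1 at 1.67 and Adh1 at 1.03, and the other 28 points lie between -0.42 and 0.45.

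The neighbourhood of Aldh1a1 was read on either side of the gene. Within 1 Mb lay 7 other genes of the table, of which 3 were tested and 0 called by limma, with Tmc1 and Zfand5 at an unadjusted p under 0.05. Within 5 Mb 27 were tested and 4 called, where 2.74% of all tested genes were called. These 4 are named because of their small number and were chosen after their values were seen. Vps13a, Carnmt1 and Ptar1 rose by 1.46, 0.53 and 0.52 on the log2 scale (limma adjusted p = 0.0147, 0.0435 and 0.0265), and Ostf1 fell by 0.48 (adjusted p = 0.044). Tmc1, a channel gene of inner ear hair cells that lies beside Aldh1a7, was also chosen after its values were seen. It had 1.66, 0.0243 and 0.0283 RPKM in KO 1, 2 and 3, against 3.26, 2.26 and 2.73 RPKM in WT 1, 2 and 3. All KO libraries were below all WT libraries, KO 1 was far above KO 2 and KO 3, and the log2 change of -1.40 did not pass (limma adjusted p = 0.0817).

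Aldh1a2 and Khdc3 lie on the same chromosome, 1805593 bases apart. Between them lay 12 tested genes, of which 1 was called (Tex9, log2 0.73, limma adjusted p = 0.018). Tex9 also reached 1 RPKM in the KO libraries alone, and with no filter its adjusted p was 0.0897. Crabp1 lies on this chromosome too, 18328726 bases from Khdc3. Between these genes lay 122 tested genes, which take in the 12 above, and 14 were called. Over all tested genes 2.74% were called. Within 1 Mb of Aldh1a2, 2 of 10 tested genes were called, both named after their values were seen. Myo1e, a motor protein gene, averaged 8.79 ± 0.413 RPKM in KO and 2.78 ± 0.936 RPKM in WT (SD, n = 3 each) and rose by 1.40 on the log2 scale. Aqp9, a channel for water and glycerol, averaged 3.55 ± 0.307 RPKM in KO and 7.21 ± 1.26 RPKM in WT (SD, n = 3 each) and fell by 0.84. With no filter their adjusted p in limma was 0.06 and 0.0838.

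Oocytes taken from ovaries by hand can carry other ovarian cells, and in bulk RNA fewer cells of a type and less RNA per cell cannot be told apart. As background for the marker lists, 336 of all 12272 tested genes were called by limma and 2329 had an unadjusted p under 0.05. Granulosa and cumulus markers (18 genes) summed to 453, 464 and 581 RPKM in KO 1, 2 and 3, against 422, 405 and 269 RPKM in WT 1, 2 and 3. Of 16 tested, 0 were called by limma and 6 had an unadjusted p under 0.05. A positive log2 change was found for 15 of the 16 and a negative one for 1, with a median of 0.50 beside 0.01 over all tested genes. The negative one, Esr2 at -0.21, was among the 6. In the sum of the granulosa and cumulus markers all KO libraries were above all WT libraries, and KO 3 was highest. Inha, the inhibin subunit and the most abundant of them, had 227, 242 and 310.3 RPKM in KO and 203, 197 and 104 RPKM in WT. The 15 markers of stroma, muscle and surface epithelium summed to 45.1 to 61.8 RPKM in KO and 32.8 to 43.6 RPKM in WT. Of their 11 tested genes 10 had a positive log2 change and 1 a negative one, with a median of 0.71 beside 0.01 over all tested genes. An unadjusted p under 0.05 was found for 10 of the 11, and 1 was called, Acta2, the smooth muscle actin, which rose by 0.76 on the log2 scale (limma adjusted p = 0.0337). The collagen genes Col3a1 and Col1a2 had 1.03 and 0.73 without being called. The negative one was Myh11, the most abundant, at -0.22, and it was among the 10.

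Theca and luteal markers (9 genes) summed to 106, 127 and 125 RPKM in KO 1, 2 and 3, against 31.5, 135 and 25.3 RPKM in WT 1, 2 and 3, so WT 2 lay with the KO libraries. Hsd3b1, a steroid-making enzyme, led them, and Nr5a1, a steroidogenic regulator, was the 1 called of 5 tested, with a log2 change of 0.82 (limma adjusted p = 0.0389), where 2 of the 5 had an unadjusted p under 0.05. Leukocyte markers, led by H2-Aa, summed to 6.74, 13.7 and 7.73 RPKM in KO 1, 2 and 3. In WT 1, 2 and 3 they summed to 4.62, 2.77 and 5.14 RPKM. Endothelial markers, led by Pecam1, summed to 17.2 to 20.9 RPKM in KO and 19.8 to 20.7 RPKM in WT, and erythroid markers, led by Hbb-bs, to 8.88 to 71.6 RPKM in KO and 17.5 to 73.2 RPKM in WT. None of the 2 leukocyte, 3 endothelial and 3 erythroid markers tested was called by limma, with 1, 2 and 0 at an unadjusted p under 0.05. No marker of the lists was at 0 in all 3 libraries of a group. The oocyte markers summed to 14938 to 15513 RPKM in KO and 15925 to 16921 RPKM in WT. Of 14 tested, 0 were called by limma and 3 had an unadjusted p under 0.05, as had 2329 of all 12272 tested genes. The 3 did not share a direction: Zp3 and Padi6 had log2 changes of -0.22 and -0.24, and Dazl had 0.22. Of the 14 oocyte markers 12 had a negative log2 change and 2 a positive one, with a median of -0.11. The granulosa, stroma and leukocyte sums were higher in every KO library, and the oocyte sum was lower. Aldh1a1 and Adh1 were higher in every KO library too, but both passed the filter through the KO libraries alone. Their separation was thus fixed in advance, and nothing is drawn from its match with the sums. Among the KO libraries KO 3 was highest in Aldh1a1, Adh1 and the granulosa sum. The stroma sum was highest in KO 1 and lowest in KO 3, and the leukocyte sum was highest in KO 2. Much of that KO 2 sum was 1 gene, Lyz2, at 6.66 RPKM, against 0.716 RPKM in KO 1 and 0.245 RPKM in KO 3. The part of other ovarian cells in the results for Aldh1a1 and Adh1 was not tested.

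**Figure D5:**
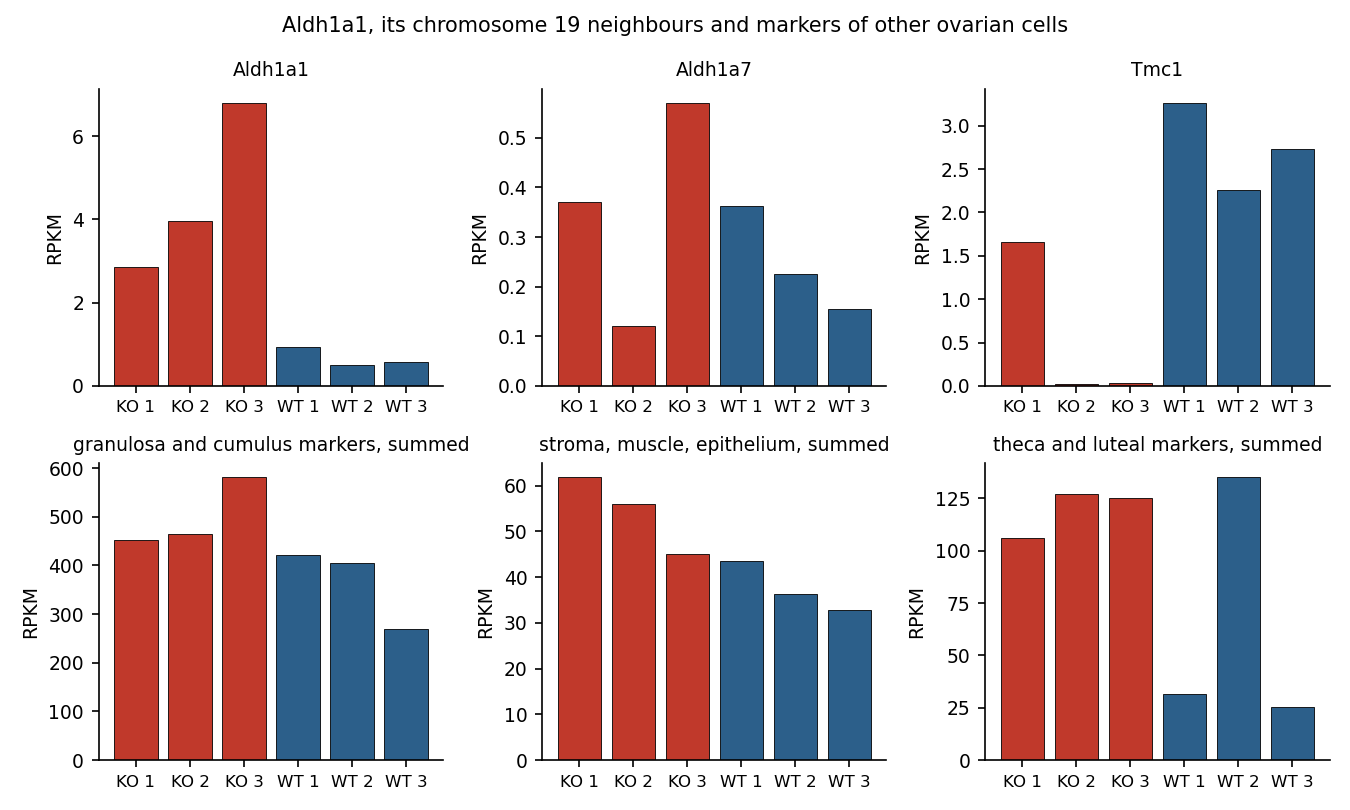
RPKM in each library of Aldh1a1, its neighbours Aldh1a7 and Tmc1, and 3 sums of markers of other ovarian cells, with KO in red and WT in blue. Granulosa sums are 453 to 581 in KO and 269 to 422 in WT, and the theca sum of WT 2 (135) lies with those of KO.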

How the data were processed

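RNA of mouse oocytes was measured in 6 libraries, 3 KO and 3 WT, grouped and numbered by their titles. Per the labels' protocols, a PicoPure kit gave the RNA and a directional NEB kit, which keeps the strand, the libraries. The build was GRCm38.p6 and the tools were featureCounts 1.6.2, STAR 2.6.0c and FastQC 0.11.7, per the submitters' processing notes. The sources used here do not say if strand was used in counting, so overlapping or antisense genes can share reads. The authors deposited RPKM values for 53656 symbols.

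Reads were recovered as RPKM times the joined exon length in GENCODE M21 times library reads. At a tolerance of 0.01, 92.4% of 19630 matched genes gave whole reads. The annotated length of Aldh1a1, 4937 bases, did not, and the smallest length that did, 4934, was used, so all its reads may be low by one factor. The test was limma 3.58.1 on log2(RPKM + 1) (trended prior, R 4.3.3), with genotype alone, after the filter of 1 RPKM in 3 of 6 libraries, and the fit was tested on simulated data. Genes too low for this were given exact two-sided permutation tests. Libraries of a group differed by more than sampling noise (chi-square per degree of freedom 13.9 to 33.84).

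The members, the wider list and the marker lists were chosen with earlier results of these data known. Named genes are the 10 genes, Khdc3, called genes of the retinoid list and near Aldh1a1, the 2 most abundant others of each role and, of each marker list, the most abundant and the called genes. Some others are named where the text says so or as members of a group being described. Alternatives were other pseudocounts, filters, scalings, library weights, voom on recovered reads, a replicate block and leaving out each library. Sequences came from RefSeq (GRCm38.p6), matched by symbol for 9 of the 10 genes. Python 3.11.15, numpy 2.4.6, pandas 2.3.3, Biopython 1.88 and matplotlib 3.10.9 were used.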

Additional observations from a re-analysis of the deposited data

How the results depend on the processing

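Aldh1a1 kept its direction in all 16 alternatives in which it was fitted and its call in 14, with adjusted p of 0.00361 to 0.087 and log2 changes of 1.39 to 2.73 in limma, the highest with voom on recovered reads. It lost the call with no filter (0.087) and without WT 3 (0.0533), and the cause was not tested. Aldh1a2 kept its direction in 17 alternatives. Without single libraries Rdh10 ran from -0.02 to 0.02 and Rdh11 from -0.04 to 0.06. Rdh10 turned to -0.00035 with median-ratio scaling, -0.02 with quantile normalization, -0.01 with library weights, and -0.02 without KO 1 or without WT 1. Rdh11 turned to 0.03 without KO 2 and 0.06 without WT 3.

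Of the 10 genes 0 were called with no filter, 0 with a filter of 5 RPKM, where Aldh1a1 was too low to be tested, and 2 with library weights. Leaving out single libraries gave 0 (without WT 3) to 2 (without KO 1). Of the wider list 0 were called with no filter, 0 with a filter of 5 RPKM and 4 with library weights, and leaving out single libraries gave 0 (without WT 3) to 3 (without KO 1, where Aldh1a2 was the 1 called lower), with 1 without KO 2, KO 3 or WT 1. Of all genes 94 were called with no filter, 222 with a filter of 5 RPKM and 662 with library weights, and 151 (without KO 3) to 289 (without KO 1) without single libraries, with 152 without KO 2, 195 without WT 2 and 161 without WT 3. The window of 5 Mb around Aldh1a1 held 4 called genes of 27 tested and that of 1 Mb 0 of 3, where 2.74% of all tested genes were called. Filters on the mean RPKM over the 6 libraries were added after seeing the data, and under both Aldh1a1 remained called.

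Same-numbered libraries did not deviate together (correlations of -0.0161, 0.213 and -0.0341), so the numbers were not taken to pair them. With a replicate block 320 genes and 1 of the 10 were called, Aldh1a1 at an adjusted p of 0.0257 in limma. Genes under the filter have too few reads here for a change to be detectable unless it is large, and 3 libraries a group limit every test.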
